A study of Homo sapiens with 12 samples.

Results

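Lung-metastatic MDA-MB-231 breast cancer cells in which ACSL5 was knocked down and which were also treated with palmitic acid (shACSL5+PA) were compared with control-hairpin cells that received neither change (shControl). All libraries that the titles assign to these groups were used, 3 per group, which makes 6 of the 12 libraries of the series. The other 6 libraries, 3 with the knockdown alone (shACSL5) and 3 with palmitic acid alone in control-hairpin cells (shControl+PA), give the single changes. All 4 groups carry a short hairpin RNA, come from the cell line MDA-MB-231, a triple-negative human line of basal-like type, and were grown in the same serum medium. The series text calls the cells LM3 and asks how ACSL5 bears on breast tumours that spread to the lung. The labels give neither dose, duration nor carrier of the palmitic acid, nor the number or sequences of the hairpins and whether the cells are 1 clone. So the carrier and the fatty acid cannot be told apart, nor can an off-target or clonal effect and the loss of ACSL5. The labels do not say whether the 3 libraries of a group came from separate cultures, and p-values then measure only the spread between these libraries.

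ACSL5 sits in the outer mitochondrial membrane and endoplasmic reticulum, where it couples long-chain fatty acids such as palmitate to coenzyme A, the step that admits them to oxidation, lipid synthesis and protein acylation. Free fatty acids bind the PPAR nuclear receptors, which switch on genes of fatty acid handling, and an excess of saturated fatty acid is known to strain the endoplasmic reticulum, to engage the integrated stress response through the transcription factor ATF4, and to activate NF-kB and its chemokines. A knockdown together with palmitate therefore changes both the supply of a fatty acid and an enzyme that uses it, and each gene can respond to one, to both, or to each in opposite ways.

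The libraries compared held 17119570 to 20623983 counted reads, and all 12 held 16788694 to 21814751. On the first principal component of all 12 libraries (47.4% of the variance) shControl stood at -40.5 to -37.4, shControl+PA at -28.2 to -27.5, shACSL5+PA at 26.3 to 29.5 and shACSL5 at 38.3 to 39.4. ACSL5 (chr10:112374018-112428380, plus strand, coordinates of GENCODE release 29 on GRCh38) read 142, 143 and 145 CPM (read counts scaled to a common library size with the trimmed mean of M-values, TMM) in shControl and 14.9, 13.3 and 17.6 in shACSL5+PA, 10.7% of the control mean. The groups did not overlap, the log2 change was -3.23 ± 0.066 (SE, adjusted p = 2.14e-20), and the exact 2-sided permutation test gave p = 0.1, the smallest that 3 against 3 allows. The knockdown alone changed ACSL5 by -3.67 ± 0.069 (SE, adjusted p = 4.20e-21) and palmitate alone by 0.41 ± 0.050 (SE, adjusted p = 1.65e-06). Its level in shACSL5+PA was above that in shACSL5 by 0.44 ± 0.090 (SE, adjusted p = 0.00103), so the 10.7% includes a palmitate change. Markers of basal-like MDA-MB-231 cells (10 genes) summed to 8797 to 9052 CPM in shControl and 6691 to 6947 in shACSL5+PA, with none at 0. VIM was the largest part, at 3952 CPM on average in shControl and 2619 in shACSL5+PA. Of the 10 genes, 8 were lower and 1 higher at an adjusted p under 0.05. Luminal markers (11 genes, with PGR and TFF1 at 0 in shACSL5+PA) summed to 821 to 853 and 639 to 691. The sum of 12 immune markers was 35.5 to 38.0 CPM and 46.1 to 54.8, nearly all from CD68, with CD3E, CD4, MS4A1 and NKG7 at 0 in both groups. In bulk RNA, fewer cells of one kind and less RNA per cell cannot be told apart.

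Knockdown and palmitate together changed most of the measured genes, mostly by less than 2-fold. Of 14706 genes that passed the count filter, 4245 were higher in shACSL5+PA (28.9% of the genes tested) and 4542 lower (30.9%) at an adjusted p under 0.05, and the median size of all log2 changes was 0.328. A change of at least 2-fold was reached by 430 of the higher and 830 of the lower genes. Over the alternative settings these counts ran from 313 to 530 and from 636 to 918. Higher genes made up 48.3% of the calls, and 50.3% with DESeq2, 50.6% with the 6 libraries alone and 42.6% with library sizes alone, so the balance of higher and lower calls turned with the setting. For the single changes, which share the shControl libraries with the combined comparison, the knockdown gave 29.7% of genes higher and 32.6% lower, and palmitate 15.1% higher and 13.5% lower. With library sizes alone in place of TMM scaling, higher genes made up 35.9% of the palmitate calls in place of 52.8%.

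The state with both treatments differed from the knockdown alone in fewer genes than from palmitate alone. Against shACSL5, which isolates the palmitate response of knockdown cells, 12.1% of genes were higher and 9.78% lower, and higher genes were 55.3% of the calls (46.1% with library sizes alone). Against shControl+PA, which isolates the knockdown under palmitate, 24.4% were higher and 26.1% lower. The departure of the combined change from the sum of the single changes, which is the interaction term of the model (the palmitate response with the knockdown less the response without it), passed the test with a positive value for 7.15% of genes and a negative value for 7.39%. Positive values made up 49.2% of those calls, and 59.9% with library sizes alone.

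The largest rises included genes of membrane traffic, lipid signalling and secreted factors. STXBP6, which binds SNARE proteins and restrains vesicle fusion, read 0.228, 0.0549 and 0.0526 CPM in shControl and 11.2, 11.9 and 10.3 in shACSL5+PA. It was close to silent in all shControl libraries (6 counts in all, against 655), and the log2 change was 6.58 ± 0.29 (SE, adjusted p = 1.27e-14), with a counting interval of 5.54 to 8.12 on the log2 ratio of the summed counts. The knockdown alone gave STXBP6 a change of 6.96 and palmitate alone 0.71 ± 0.67 (SE, adjusted p = 0.479), so the palmitate change did not pass the test. The phospholipid flippase ATP8B1 went from 2.85, 1.87 and 2.37 CPM to 16.3, 18.7 and 16.3 (log2 2.86 ± 0.15 SE, adjusted p = 1.66e-13), with a knockdown change of 2.77. SPHK1, the kinase that makes sphingosine 1-phosphate, read 5.24, 6.2 and 5.37 CPM and then 36.6, 35.2 and 34.7, a 6.33-fold level at log2 2.66 ± 0.11 (SE, adjusted p = 2.50e-15). Both were higher in every shACSL5+PA library than in every shControl library, which was a condition of the choice.

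ANGPTL4 (chr19:8363289-8374373), an inhibitor of lipoprotein lipase and a PPAR target, read 2.11, 2.25 and 2.95 CPM in shControl, 2.02, 1.66 and 2.58 in shACSL5, 20.002, 17.5 and 21.5 in shControl+PA and 16.3, 18.9 and 17.7 in shACSL5+PA. Its libraries fell into a low pair of groups without palmitate and a high pair with it. The combined change of 2.84 ± 0.15 (SE, adjusted p = 1.66e-13) stood beside a palmitate change of 3.00. The departure of ANGPTL4 from the sum was 0.061 ± 0.23 (SE, adjusted p = 0.901), with a 95% interval of -0.41 to 0.53. GPNMB, a glycoprotein of lysosomes and melanosomes, read 1.31, 1.15 and 1.47 CPM and 9.21, 9.5 and 9.46 (log2 2.83 ± 0.17 SE, adjusted p = 2.35e-12). HSD17B10, a mitochondrial dehydrogenase that is also a subunit of mitochondrial RNase P, read 9.63, 8.45 and 9.89 and 53.8, 52.9 and 53.6 CPM (log2 2.52 ± 0.078 SE, adjusted p = 2.62e-17). Among the 10 largest rises, RPL13AP20 (log2 2.54) and KRTAP2-3 (2.43) are uncertain, since 26.8% and 39.7% of their 50-base stretches occur in other genes.

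The largest falls included genes of the actin cytoskeleton and of cell contact. AFAP1L2, an actin filament adaptor (chr10:114294824-114404756), read 18.9, 21.4 and 22.05 CPM in shControl and 1.13, 1.42 and 1.67 in shACSL5+PA, 6.76% of the control mean (log2 -3.89 ± 0.21 SE, adjusted p = 3.91e-13). DPYSL3, a cytoskeletal protein of the collapsin response mediator family, went from 28.7, 31.7 and 31.5 to 4.9, 5.81 and 5.00 CPM (-2.55 ± 0.11 SE, adjusted p = 1.10e-14). The actin-severing protein SCIN went from 15.4, 14.2 and 15.2 to 2.35, 2.02 and 2.85 CPM (-2.63 ± 0.14 SE, adjusted p = 3.58e-13). In none of these genes did a shACSL5+PA library reach the lowest shControl library, which was a condition of the choice. S100A4, a calcium-binding protein tied to motility and metastasis, read 11.9, 13.1 and 15.2 CPM and 2.5, 2.17 and 2.2 (-2.54 ± 0.16 SE, adjusted p = 2.86e-12). JCAD, a protein of cadherin junctions, changed by -2.75 ± 0.11 (SE, adjusted p = 3.92e-15), the adhesion receptor ADGRG1 by -2.53 ± 0.086 (SE, adjusted p = 1.20e-16) and CYRIA, which binds the GTPase RAC, by -2.48 ± 0.12 (SE, adjusted p = 4.77e-14). The co-repressor TLE2 (-2.65) and the membrane-bound transcription factor CREB3L1 (-2.53) completed the 10 largest falls with ACSL5.

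**Figure D1:**
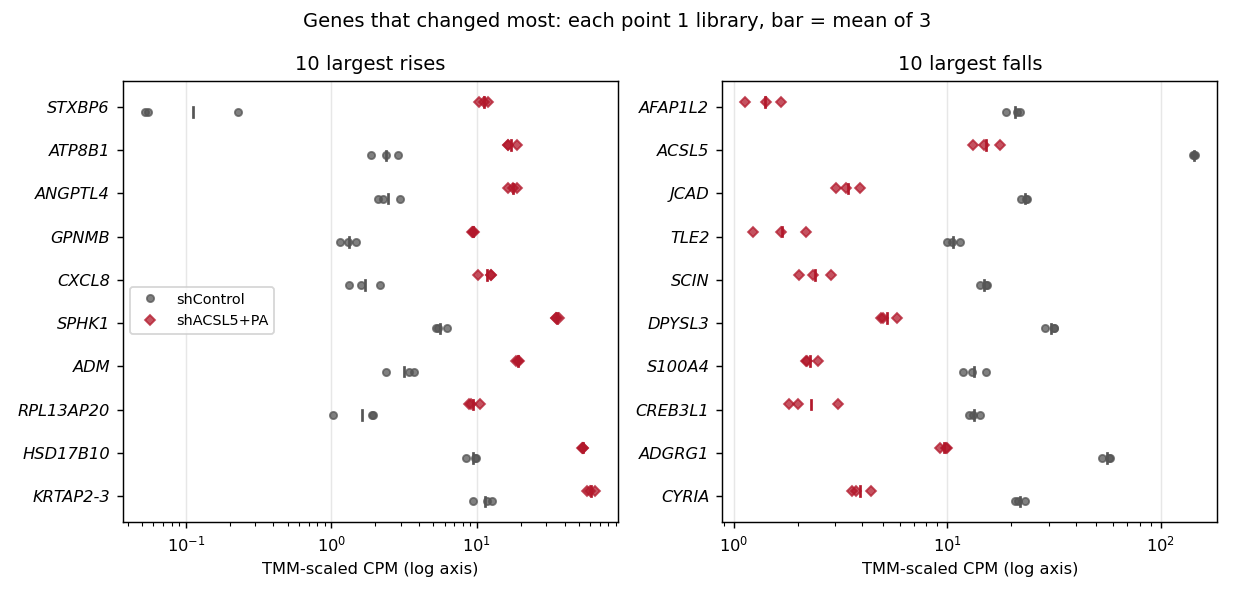
TMM-scaled CPM of the 10 genes with the largest rises and the 10 with the largest falls in each of the 6 libraries, on a log axis; grey circles are shControl, red diamonds shACSL5+PA, and bars the mean of 3 libraries. The 2 groups do not overlap in any of the 20 genes (a condition of the choice), and STXBP6 spans the widest gap.

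Some genes were changed in the same direction under each single treatment. The genes below were picked for single changes of at least 0.5 on the log2 scale, so their single changes are a description, and the choice favours genes whose combined change falls short of the sum. S100A4 was named for its large fall and not by this rule, and its departure was not followed over the alternatives. The log2 change of S100A4 was -1.28 with the knockdown and -1.21 with palmitate. Their sum of -2.49 differed from the combined -2.54 by a departure of -0.056 ± 0.21 (SE, adjusted p = 0.905), with a 95% interval of -0.50 to 0.39. HDAC9, a class IIa histone deacetylase, read 11.2, 11.4 and 10.1 CPM in shControl, 22.1, 22.03 and 18.7 in shACSL5, 20.8, 25.2 and 22.6 in shControl+PA and 29.8, 32.6 and 29.8 in shACSL5+PA. Each treatment raised it, both together raised it further, and no library of shACSL5+PA overlapped another group. Its combined change of 1.497 was below the sum of 2.01. PPP1R15A, which brings protein phosphatase 1 to the translation factor eIF2-alpha, had the same order of groups, with 73.4, 82.4 and 82.3 CPM in shControl and 199.5, 197 and 206 in shACSL5+PA (1.34 ± 0.043 SE, adjusted p = 4.97e-17).

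DUSP1, a phosphatase that turns off MAP kinases, read 34.8, 38.8 and 36.5 CPM in shControl, 96.0, 92.0 and 93.1 in shACSL5, 108, 109 and 105 in shControl+PA and 102, 106 and 107 in shACSL5+PA. The shControl+PA and shACSL5+PA libraries overlapped and differed by -0.026 ± 0.043 (SE, adjusted p = 0.638), the combined change was 1.52 ± 0.047 (SE, adjusted p = 2.76e-17), and the sum of the single changes was 2.90. The neutrophil chemokine gene CXCL8 read 1.6, 1.32 and 2.16 CPM in shControl, 3.21, 3.02 and 3.32 in shACSL5, 30.3, 28.0 and 29.3 in shControl+PA and 12.5, 12.5 and 10.1 in shACSL5+PA. Its 4 groups did not overlap, the combined change was 2.78 ± 0.15 (SE, adjusted p = 4.05e-13) and the difference from palmitate alone was -1.32 ± 0.11 (SE, adjusted p = 7.17e-10). The vasodilator peptide gene ADM read 3.42, 2.36 and 3.68 CPM in shControl, 23.7, 23.6 and 21.0 in shACSL5, 7.1, 5.73 and 6.05 in shControl+PA and 19.4, 18.5 and 19.3 in shACSL5+PA. Its libraries were highest with the knockdown alone, although the difference from both treatments (-0.26 ± 0.10 SE, adjusted p = 0.0731) did not pass the test, and its combined change was 2.59 ± 0.13 (SE, adjusted p = 1.00e-13). RIOX1, a ribosomal oxygenase, also met the rule, but 2 of 3 shControl libraries held no read and its libraries within a group differed several-fold (2.74, 1.52 and 5.91 CPM in shACSL5+PA). Its combined change of 2.30 ± 0.92 (SE, adjusted p = 0.0344) did not pass with DESeq2 or without shControl replicate 1 or 3 or shACSL5+PA replicate 3, with an adjusted p of up to 0.196, and was 8.99 without shControl replicate 2.

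Of the 6 genes lowered most by each treatment, 5 had a positive departure from the sum that passed the test, beside 7.15% of all genes. Large falls in both single changes, each against the same shControl libraries, favour a positive departure, so this count is a description. ITGB4, the integrin beta chain of hemidesmosomes, read 119, 129 and 134 CPM in shControl, 50.7, 42.7 and 50.7 in shACSL5, 50.1, 56.2 and 50.3 in shControl+PA and 35.5, 39.2 and 37.8 in shACSL5+PA. Every shACSL5+PA library was below every library of the other groups, with a combined change of -1.76 ± 0.065 (SE, adjusted p = 4.43e-16) beside a sum of -2.69. VGLL3, a cofactor of TEAD transcription factors, fell to 2.06, 3.08 and 2.26 CPM from 12.9, 13.2 and 12.2 (-2.37 ± 0.15 SE, adjusted p = 6.79e-12). The LIM-domain gene CRIP2 fell to 1.81, 3.69 and 3.55 CPM from 12.5, 13.1 and 14.1 (-2.14 ± 0.18 SE, adjusted p = 8.35e-10), and F13A1, the catalytic chain of a clotting transglutaminase, to 2.6, 2.53 and 2.79 from 14.8, 13.9 and 14.7 (-2.45 ± 0.17 SE, adjusted p = 2.49e-11). The departure of F13A1 did not pass (0.63 ± 0.25 SE, adjusted p = 0.094), and that of CREB3L1 (0.82 ± 0.25 SE, adjusted p = 0.0306) no longer passed under 6 of 17 alternatives, each leaving out 1 library. For AFAP1L2 and CREB3L1 the combined changes of -3.89 and -2.53 stood beside sums of -5.57 and -3.35.

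**Figure D2:**
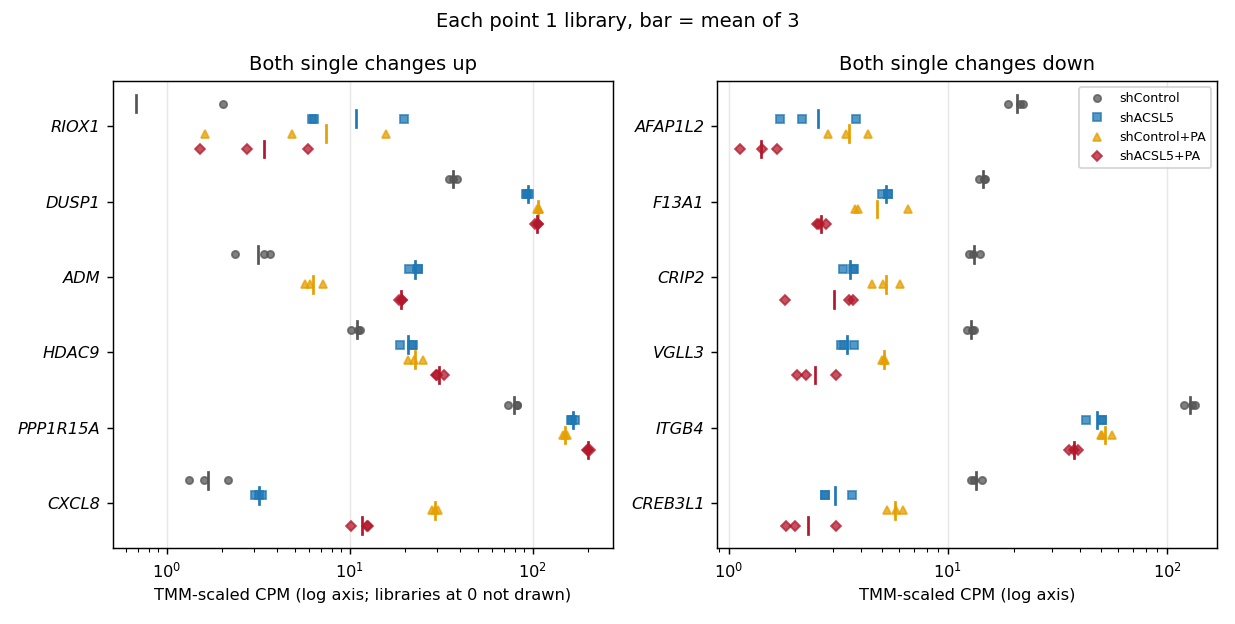
TMM-scaled CPM in all 12 libraries of the 6 genes that rose (left) and the 6 that fell (right) under each single treatment, on log axes, with the mean of 3 libraries as a bar. The shACSL5+PA diamonds lie beyond both single treatments for HDAC9, PPP1R15A and ITGB4, level with palmitate alone for DUSP1, and between the single treatments for CXCL8 and ADM.

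Other genes were pushed in opposite directions. PDK4, the kinase that closes pyruvate dehydrogenase when fatty acids are burned, read 6.55, 6.64 and 6.84 CPM in shControl, 2.38, 2.72 and 1.9 in shACSL5, 22.5, 23.8 and 22.2 in shControl+PA and 17.5, 16.6 and 18.1 in shACSL5+PA. The knockdown alone lowered it and palmitate raised it, and all shACSL5+PA libraries were above all shControl libraries. The combined change of 1.38 ± 0.10 (SE, adjusted p = 9.35e-11) was above the sum of 0.25, a departure of 1.13 ± 0.17 (SE, adjusted p = 6.55e-05). DDIT4, an inhibitor of mTOR, read 61.0, 63.1 and 63.6 CPM in shControl, 26.1, 24.0 and 22.8 in shACSL5, 99.7, 92.9 and 99.6 in shControl+PA and 47.3, 47.9 and 49.0 in shACSL5+PA. It ended below the control level at -0.38 ± 0.053 (SE, adjusted p = 1.57e-06), with the caution that 41.2% of its exon bases overlap an antisense gene and the strand setting of the counting is not given. P4HA1, a subunit of the collagen prolyl hydroxylase, changed by -0.86 with the knockdown and 0.71 with palmitate and ended at -0.13 ± 0.038 (SE, adjusted p = 0.00565), 91.5% of the control mean.

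For 3 of the opposed genes the net change did not pass the test. The water and glycerol channel AQP3 read 10.7, 8.18 and 9.21 CPM in shControl and 9.11, 7.83 and 8.49 in shACSL5+PA, although the knockdown alone gave -0.94 and palmitate alone 1.31. Its libraries overlapped and the net change was -0.14 ± 0.13 (SE, adjusted p = 0.372), with a 95% interval of -0.42 to 0.13, and -0.037 and -0.23 without shControl replicate 1 and 2. NFKBIZ, a nuclear regulator of NF-kB targets, had a net change of 0.15 ± 0.13 (SE, adjusted p = 0.331) with an interval of -0.12 to 0.42, after single changes of -0.62 and 1.21. It was 0.086, 0.088 and 0.29 without shControl replicate 1, 2 and 3, and did not pass in any of them. FILIP1L had -0.34 ± 0.16 (SE, adjusted p = 0.0615) with an interval of -0.66 to -0.021, after 1.18 and -0.82, and passed with library sizes alone (adjusted p = 0.0338). A change that misses the threshold does not show a return to the control level. The stress cytokine GDF15 read 3.7, 4.61 and 3.95 CPM in shControl, 1.51, 2.25 and 1.74 in shACSL5, 11.6, 14.7 and 11.3 in shControl+PA and 4.85, 6.01 and 5.43 in shACSL5+PA. Its net change of 0.41 ± 0.17 (SE, adjusted p = 0.0401) did not pass under 7 of the 18 alternatives, among them DESeq2, library sizes alone and the omission of shControl replicate 1 or 3 or shACSL5+PA replicate 2 or 3, with adjusted p from 0.0192 to 0.144.

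Of the 6 genes that the knockdown raised and palmitate lowered, 5 ended above the control level, beside 28.9% of all genes tested. The 6 were picked for their single changes against the same shControl libraries, so this count is a description. SUSD2, a membrane protein, read 7.18, 8.07 and 8.1 CPM in shControl, 53.8, 50.6 and 56.6 in shACSL5, 4.32, 2.87 and 4.25 in shControl+PA and 28.9, 29.5 and 32.8 in shACSL5+PA. All shACSL5+PA libraries lay between the control and the knockdown, and the net change was 1.96 ± 0.10 (SE, adjusted p = 1.08e-13). The matrix protein gene MATN2 had a net change of 1.74 ± 0.13 (SE, adjusted p = 9.69e-11) and the calmodulin-dependent phosphodiesterase PDE1C one of 1.60 ± 0.19 (SE, adjusted p = 1.65e-07). SMAD6, an inhibitor of BMP signalling, ended at 0.82 ± 0.16 (SE, adjusted p = 1.28e-04) and the semaphorin SEMA3G at 0.37 ± 0.13 (SE, adjusted p = 0.0214). The call for SEMA3G was lost without shControl replicate 1 or 3 or shACSL5+PA replicate 3, with an adjusted p of up to 0.0839.

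**Figure D3:**
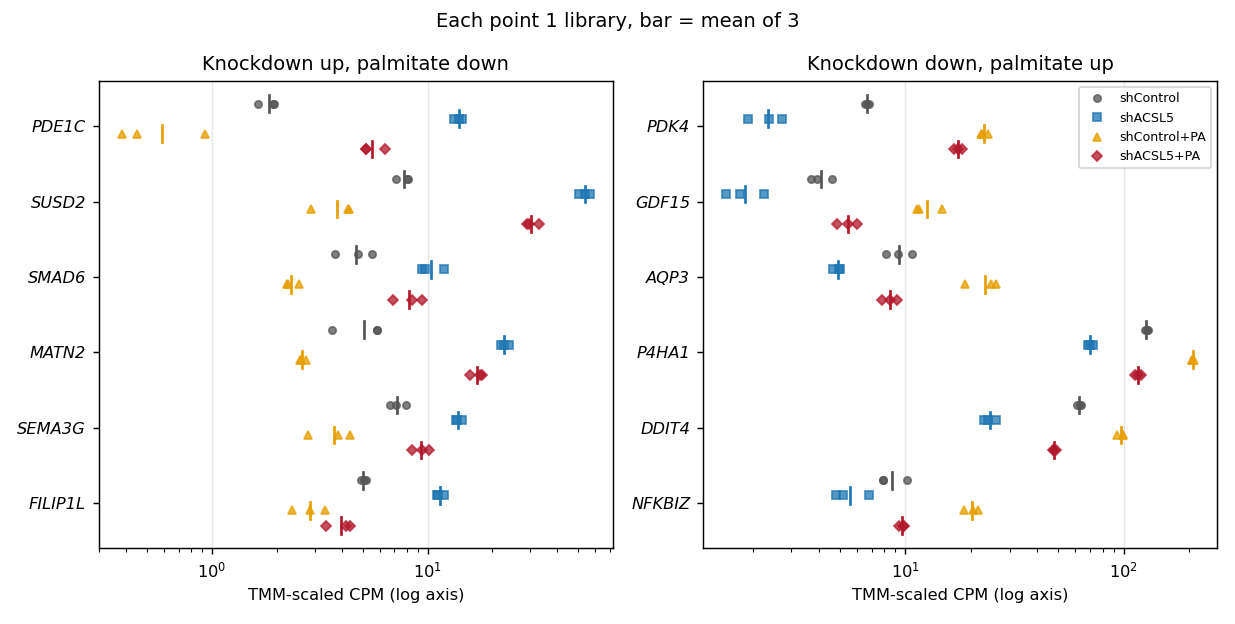
TMM-scaled CPM in all 12 libraries of 6 genes raised by the knockdown and lowered by palmitate (left) and 6 with the reverse pattern (right), on log axes, with the mean of 3 libraries as a bar. The shACSL5+PA diamonds lie between the single treatments in each gene, above shControl for SUSD2, MATN2 and PDK4 and among the shControl points for AQP3 and NFKBIZ.

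The largest departures from the sum included genes of inflammation and of the cytoskeleton. On the negative side stood CXCL8 (-2.22 ± 0.21 SE, adjusted p = 2.96e-07), TNFAIP3, which restrains NF-kB signalling (-1.53 ± 0.21 SE, adjusted p = 3.00e-05), DUSP1 (-1.38 ± 0.064 SE, adjusted p = 3.84e-12), the prostaglandin synthase PTGS2 (-1.29 ± 0.14 SE, adjusted p = 1.47e-06), ADM (-1.25 ± 0.18 SE, adjusted p = 5.32e-05) and RIOX1 (-5.11, or -11.8 without shControl replicate 2). PTGS2 read 6.84, 6.92 and 6.42 CPM in shControl, 5.82, 6.51 and 5.48 in shACSL5, 56.1, 53.2 and 51.2 in shControl+PA and 20.4, 20.1 and 17.3 in shACSL5+PA. Palmitate raised it in both backgrounds, to a lower level with the knockdown, and the combined change was 1.52 ± 0.10 (SE, adjusted p = 4.66e-12). On the positive side stood DPYSL3 (1.70 ± 0.18 SE, adjusted p = 1.42e-06), AFAP1L2 (1.68 ± 0.33 SE, adjusted p = 0.00134), the actin-bundling protein LCP1 (1.35 ± 0.15 SE, adjusted p = 2.67e-06) and SETBP1 (1.35 ± 0.26 SE, adjusted p = 9.85e-04). LCP1 read 16.1, 14.9 and 14.1 CPM in shControl, 9.39, 11.4 and 7.96 in shACSL5, 13.1, 12.5 and 12.2 in shControl+PA and 20.5, 21.1 and 19.4 in shACSL5+PA. Every shACSL5+PA library was above all 9 others, with a combined change of 0.44 ± 0.10 (SE, adjusted p = 6.82e-04), while the knockdown alone gave -0.65 ± 0.11 (SE, adjusted p = 1.79e-05) and palmitate alone -0.26 ± 0.11 (SE, adjusted p = 0.0777). The signal recognition particle RNAs RN7SL1 (2.34) and RN7SL2 (3.27) had the largest positive departures but have near-identical copies and are uncertain. Without shControl replicate 1 they were 1.39 and 2.06.

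The gene lists that follow group genes by known function. Each count for the combined state is read against the 28.9% of all tested genes that were higher and the 30.9% that were lower. The median log2 change over all genes was -0.017. Counts for the knockdown alone are read against 29.7% of all genes higher and 32.6% lower. Those for palmitate alone are read against 15.1% higher and 13.5% lower. No list was tested as a whole.

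**Figure D4:**
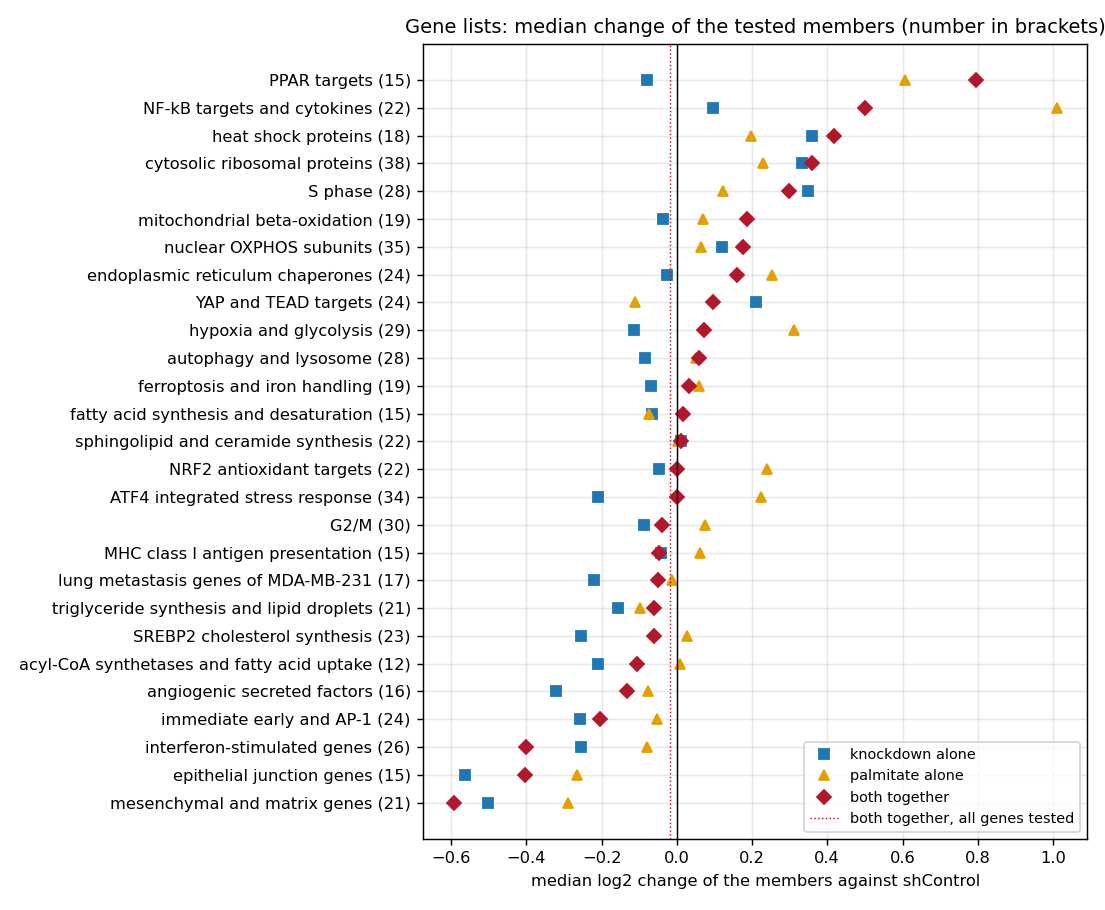
Median log2 change against shControl of the tested members of 27 gene lists (number of members in brackets) for the knockdown alone (blue squares), palmitate alone (orange triangles) and both (red diamonds), with the median of all genes for both as a dotted line. Among the red diamonds, PPAR targets lie farthest right at 0.79, except when shACSL5+PA replicate 3 is left out (0.52, beside 0.53 for NF-kB targets). Mesenchymal genes lie farthest left at -0.59. The red diamonds of the integrated stress and NRF2 lists lie at about 0 between blue and orange points on either side.

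Among targets of the PPAR receptors, which sense fatty acids, more were higher than lower with palmitate, alone or with the knockdown. Of 15 tested members (of 20 listed), 9 were higher and 3 lower in shACSL5+PA, with a median of 0.79 (0.52 without shACSL5+PA replicate 3), beside -0.08 for the knockdown and 0.61 for palmitate. CPT1A, which carries out the gating step of mitochondrial fatty acid import, read 48.9, 54.7 and 52.8 CPM in shControl, 48.4, 46.9 and 52.6 in shACSL5, 126, 131 and 125 in shControl+PA and 127, 131 and 137 in shACSL5+PA. Both palmitate groups were high and both others low without overlap, with a combined change of 1.34 ± 0.05 (SE, adjusted p = 6.65e-16) and a departure of 0.13 ± 0.072 (SE, adjusted p = 0.246). PLIN2, which coats lipid droplets, read 40.05, 45.7 and 44.4 CPM in shControl and 98.2, 98.9 and 102 in shACSL5+PA (1.20 ± 0.051 SE, adjusted p = 4.87e-15). ACADVL, the first dehydrogenase of long-chain oxidation, changed by 1.10 ± 0.034 (SE, adjusted p = 2.27e-17), from single changes of 0.30 and 0.76.

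Further genes of fatty acid oxidation were mostly higher. Of 19 genes of mitochondrial beta-oxidation, 11 were higher and 3 lower (median 0.19), with 1 lower under DESeq2, with the 6 libraries alone, with no count filter, or without shControl replicate 2 or 3 or shACSL5+PA replicate 3. ETFA, which passes electrons from fatty acids to the respiratory chain, went from 142, 147 and 148 to 215, 218 and 207 CPM (0.55 ± 0.034 SE, adjusted p = 3.76e-12), and ACAA2, the last enzyme of the cycle, from 54.7, 54.1 and 59.5 to 80.7, 80.4 and 89.1 (0.57 ± 0.053 SE, adjusted p = 3.04e-09). Of 35 nuclear genes of oxidative phosphorylation, 22 were higher and 3 lower (median 0.18), and the 37 mitochondrially encoded genes hold 0 counts in every library. The ATP synthase subunit ATP5F1B rose by 0.39 ± 0.026 (SE, adjusted p = 1.02e-11) and ATP5MC1 by 0.68 ± 0.066 (SE, adjusted p = 6.01e-09). COX5A, a subunit of cytochrome c oxidase, fell, from 95.8, 102 and 96.2 CPM to 45.9, 42.8 and 41.5 (-1.17 ± 0.056 SE, adjusted p = 3.60e-14).

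The other long-chain synthetases of ACSL5's family that were tested changed by less than 1.5-fold. ACSL1 read 31.6, 33.4 and 33.8 CPM in shControl and 40.3, 41.0 and 38.3 in shACSL5+PA (0.27 ± 0.061 SE, adjusted p = 5.02e-04). ACSL3 fell by 0.28 ± 0.049 (SE, adjusted p = 3.77e-05), beside -0.55 with the knockdown alone, and the difference between these groups was 0.28 ± 0.05 (SE, adjusted p = 3.59e-04). ACSL4 had -0.13 ± 0.042 (SE, adjusted p = 0.0134), which no longer passed without shControl replicate 1 or shACSL5+PA replicate 3, with an adjusted p of up to 0.0745. Of 12 tested acyl-CoA synthetase and uptake genes, 2 were higher and 6 lower. The transporter SLC27A1 fell from 30.5, 29.4 and 29.7 to 13.2, 14.2 and 15.9 CPM (-1.05 ± 0.083 SE, adjusted p = 2.14e-10). The medium-chain synthetase ACSF2 changed by -0.85 ± 0.12 (SE, adjusted p = 1.95e-06) and the acetyl-CoA synthetase ACSS2 by -0.55 ± 0.076 (SE, adjusted p = 1.28e-06), while the carrier FABP5 rose by 0.27 ± 0.037 (SE, adjusted p = 1.15e-06).

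Lipid synthesis lists moved in both directions. Of 23 cholesterol genes driven by SREBP2, 5 were higher and 10 lower (median -0.061; 3 higher and -0.11 with library sizes alone, -0.10 without shACSL5+PA replicate 2), beside 3 and 15 for the knockdown (median -0.25). FDFT1, which makes squalene, fell from 384, 381 and 396 to 274, 281 and 283 CPM (-0.47 ± 0.029 SE, adjusted p = 4.21e-12). SCD, the desaturase that converts saturated to monounsaturated fatty acids, read 1251, 1276 and 1283 CPM in shControl, 896, 904 and 914 in shACSL5, 1212, 1193 and 1215 in shControl+PA and 1078, 1064 and 1087 in shACSL5+PA. It was lowest with the knockdown alone, with a change of -0.24 ± 0.022 (SE, adjusted p = 2.45e-09) for both treatments and 0.25 ± 0.022 (SE, adjusted p = 2.55e-08) between these groups. Of 15 fatty acid synthesis genes, 7 were higher, among them FADS1 (0.39), and 7 lower, among them ME1 (-0.77) and SREBF1 (-0.63). With library sizes alone, or without shACSL5+PA replicate 3, 4 were higher.

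Triglyceride and droplet genes gave 6 higher and 5 lower of 21, with 9 lower under library sizes alone. The phosphatidate phosphatase LPIN2 fell from 302, 316 and 316 to 176, 184 and 179 CPM (-0.79 ± 0.033 SE, adjusted p = 4.15e-15) and LPIN1 changed by -0.55. AGPAT1, an acyltransferase of phosphatidic acid synthesis, rose by 0.67, though 30.2% of its exon bases overlap other genes. Sphingolipid genes divided evenly, with 8 higher and 8 lower of 22. Both sphingosine kinases rose, SPHK1 as given above and SPHK2 from 10.5, 10.0 and 11.4 to 18.3, 18.7 and 19.8 CPM (0.83 ± 0.10 SE, adjusted p = 1.60e-07), and SGMS1, a sphingomyelin synthase, fell by 0.53.

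Genes of the integrated stress response were about as often higher as lower in the combined state. Of 34 tested ATF4-linked genes, 14 were higher and 13 lower, and the list median took both signs over the alternatives (-0.047 to 0.022). The knockdown alone gave 11 higher and 17 lower, and palmitate alone 24 higher and 0 lower. Stress signalling genes were among the higher ones. ATF3 read 7.98, 6.53 and 6.26 CPM in shControl and 15.8, 13.2 and 14.8 in shACSL5+PA (1.08 ± 0.11 SE, adjusted p = 2.78e-08), and DDIT3, also known as CHOP, 5.7, 8.12 and 7.89 and 15.7, 13.1 and 15.0 (1.01 ± 0.14 SE, adjusted p = 1.89e-06), with 39.6% of its exon bases in overlapping genes. The amino acid transporter chain SLC3A2 rose by 0.58 ± 0.034 (SE, adjusted p = 1.12e-12) and the arginine transporter SLC7A1 by 0.48 ± 0.039 (SE, adjusted p = 3.23e-10).

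ASNS, which makes asparagine, read 209, 221 and 218 CPM in shControl, 99.8, 96.5 and 106 in shACSL5, 246, 251 and 255 in shControl+PA and 134, 134 and 135 in shACSL5+PA. Palmitate raised it in both backgrounds and the knockdown lowered it in both, for a combined change of -0.69 ± 0.037 (SE, adjusted p = 3.38e-13), with 40.6% of its 50-base stretches shared with other genes. Chosen after their values were seen, CHAC1, which degrades glutathione, had -2.27 with the knockdown, 0.22 with palmitate (adjusted p = 0.162) and -1.59 ± 0.13 (SE, adjusted p = 4.57e-10) combined, and SLC7A11, the cystine transporter, -0.71, 0.30 and -0.56 ± 0.061 (SE, adjusted p = 4.31e-08). TRIB3, a pseudokinase that dampens ATF4, had 0.27 ± 0.091 (SE, adjusted p = 0.0121), which failed the threshold without shControl replicate 2 or shACSL5+PA replicate 2, with an adjusted p of up to 0.107 and a change of 0.18 without the latter.

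**Figure D5:**
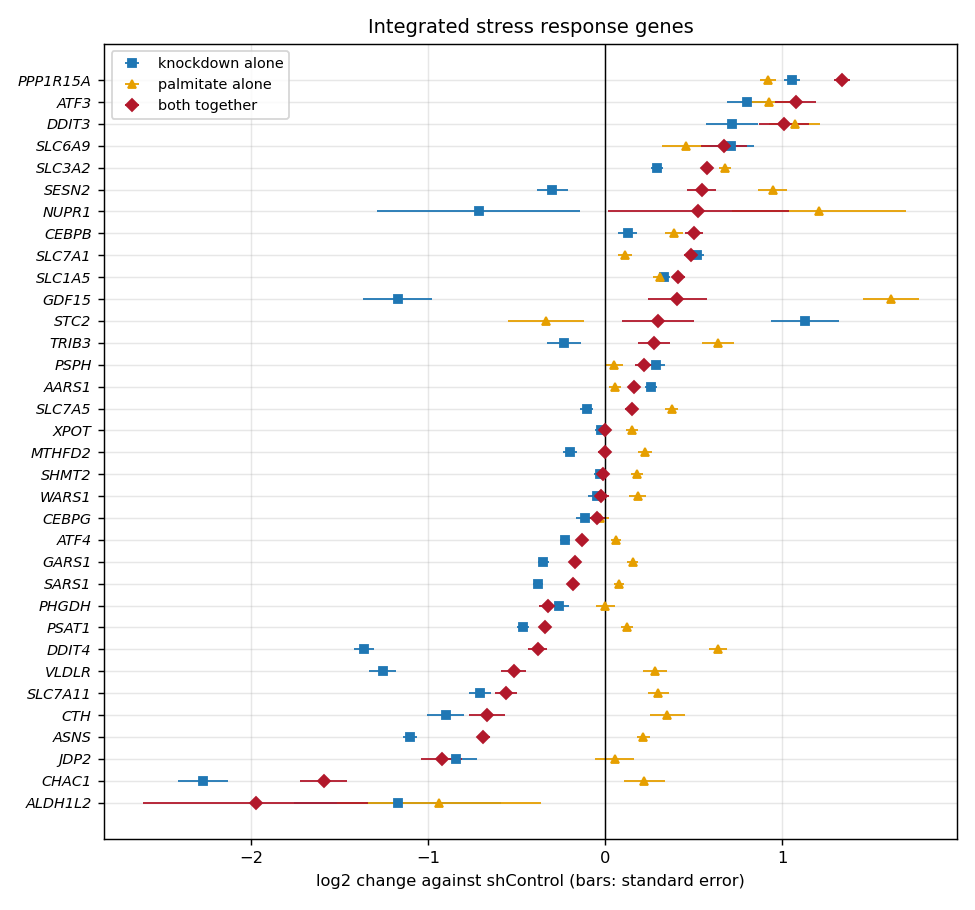
Log2 change against shControl, with its standard error, of the 34 tested genes of the integrated stress response under the knockdown alone (blue), palmitate alone (orange) and both (red), ordered by the combined change. PPP1R15A, ATF3 and DDIT3 lie on the right under all 3 conditions, while CHAC1, ASNS and DDIT4 lie on the left under the knockdown and the combination and on the right under palmitate.

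Chaperones of the endoplasmic reticulum and of the cytosol were more often higher than lower. Of 24 endoplasmic reticulum genes, 13 were higher and 5 lower (median 0.16), beside 18 and 0 with palmitate alone (median 0.25). HSPA5, the main luminal chaperone BiP, read 919.6, 942 and 937 CPM in shControl, 887, 874 and 889 in shACSL5, 1439, 1409 and 1393 in shControl+PA and 1107, 1111 and 1112 in shACSL5+PA. Its combined change was 0.25 ± 0.022 (SE, adjusted p = 1.24e-09) and its departure from the sum -0.27 ± 0.031 (SE, adjusted p = 3.93e-06). P4HB, a disulfide isomerase, rose by 0.34 ± 0.033 (SE, adjusted p = 6.22e-09) and the lectin chaperone CALR by 0.22 ± 0.024 (SE, adjusted p = 2.76e-08), while SEL1L, of the degradation machinery, fell by 0.59 ± 0.055 (SE, adjusted p = 2.58e-09). Of 18 heat shock genes, 12 were higher and 0 lower (median 0.42), with 1 lower under library sizes alone and medians of 0.36 and 0.20 for the single changes.

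HSPD1, the mitochondrial chaperonin, read 680.1, 697 and 690.4 CPM in shControl, 987, 1045 and 946 in shACSL5, 936, 966 and 962 in shControl+PA and 1158, 1185 and 1152 in shACSL5+PA. Every shACSL5+PA library was above all others, and the combined change was 0.76 ± 0.029 (SE, adjusted p = 9.33e-16). HSPA8, the constitutive cytosolic chaperone, changed by 0.43 ± 0.019 (SE, adjusted p = 1.05e-14) and HSP90AB1 by 0.43 ± 0.019 (SE, adjusted p = 9.32e-15). HSPA1B rose by 0.72, but 73.5% of its 50-base stretches occur in other genes, so its reads cannot be kept apart from those of its near-identical copy.

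NF-kB targets were more often higher than lower in the combined state. Of 22 tested members, 12 were higher and 2 lower (median 0.50), beside 13 and 0 with palmitate alone (median 1.01). NFKBIA, the inhibitor that NF-kB itself switches on, read 32.9, 30.1 and 31.4 CPM in shControl, 36.2, 39.6 and 37.9 in shACSL5, 64.1, 61.7 and 65.0 in shControl+PA and 44.7, 42.2 and 44.8 in shACSL5+PA. No 2 of its groups overlapped, with a combined change of 0.48 ± 0.058 (SE, adjusted p = 2.21e-07) and a departure of -0.80 ± 0.081 (SE, adjusted p = 6.45e-07). TNFAIP3 read 4.96, 6.09 and 3.84 CPM in shControl, 9.76, 8.35 and 7.65 in shACSL5, 12.7, 14.2 and 13.1 in shControl+PA and 6.86, 8.19 and 9.03 in shACSL5+PA, a combined change of 0.69 ± 0.16 (SE, adjusted p = 5.48e-04). TNFAIP2 fell by 0.83 ± 0.069 (SE, adjusted p = 5.05e-10).

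The promoters of some NF-kB and chaperone genes are printed here because more members of these lists rose than fell and because these genes hold the motif of the list's factor. Each is the 250 bases before a start in RefSeq (GRCh38.p14), 5′ to 3′ on the gene's strand, with the motif, on either strand, in capitals. The motifs searched were GGNNTTTCC for NF-kB, GAANNTTC for the heat shock factor HSF1 and, for the endoplasmic reticulum stress element, CCAAT and CCACG with 9 bases between them, and no motif string contains another. The first 3 sequences carry the NF-kB motif, the next 2 the stress element (reversed in CALR) and the last 2 the HSF1 motif.
CXCL8 (chr4:73740319-73740568, plus): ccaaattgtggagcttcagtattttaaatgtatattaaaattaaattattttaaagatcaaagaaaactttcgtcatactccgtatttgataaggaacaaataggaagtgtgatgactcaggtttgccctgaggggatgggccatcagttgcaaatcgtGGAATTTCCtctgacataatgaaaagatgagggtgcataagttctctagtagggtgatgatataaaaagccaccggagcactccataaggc
TNFAIP3 (chr6:137867009-137867258, plus): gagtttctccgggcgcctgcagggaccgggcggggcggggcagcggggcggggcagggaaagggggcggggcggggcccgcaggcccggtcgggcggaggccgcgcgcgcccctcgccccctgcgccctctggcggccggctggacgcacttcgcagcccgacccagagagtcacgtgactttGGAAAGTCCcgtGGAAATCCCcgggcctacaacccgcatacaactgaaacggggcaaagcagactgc
NFKBIA (chr14:35404750-35404999, minus): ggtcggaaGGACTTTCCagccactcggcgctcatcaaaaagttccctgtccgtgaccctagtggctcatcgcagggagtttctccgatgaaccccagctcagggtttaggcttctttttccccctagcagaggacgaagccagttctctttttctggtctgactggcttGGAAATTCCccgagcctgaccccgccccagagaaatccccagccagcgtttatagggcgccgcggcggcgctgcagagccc
HSPA5 (chr9:125241344-125241593, minus): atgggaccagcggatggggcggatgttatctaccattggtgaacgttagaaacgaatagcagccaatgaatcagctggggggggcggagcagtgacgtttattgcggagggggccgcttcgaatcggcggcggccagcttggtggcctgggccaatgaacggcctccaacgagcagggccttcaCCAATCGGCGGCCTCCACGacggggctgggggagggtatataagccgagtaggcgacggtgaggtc
CALR (chr19:12938359-12938608, plus): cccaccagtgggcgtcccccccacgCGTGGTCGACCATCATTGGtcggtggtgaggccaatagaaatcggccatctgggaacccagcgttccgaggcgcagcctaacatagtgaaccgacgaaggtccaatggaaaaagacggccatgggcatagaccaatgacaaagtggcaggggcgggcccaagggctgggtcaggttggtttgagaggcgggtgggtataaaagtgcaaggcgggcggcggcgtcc
HSPD1 (chr2:197499841-197500090, minus): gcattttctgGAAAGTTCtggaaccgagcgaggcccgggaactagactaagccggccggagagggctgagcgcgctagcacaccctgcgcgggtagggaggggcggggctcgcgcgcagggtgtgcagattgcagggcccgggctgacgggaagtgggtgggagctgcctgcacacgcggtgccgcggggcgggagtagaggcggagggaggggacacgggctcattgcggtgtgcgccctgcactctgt
HSPA8 (chr11:123062137-123062386, minus): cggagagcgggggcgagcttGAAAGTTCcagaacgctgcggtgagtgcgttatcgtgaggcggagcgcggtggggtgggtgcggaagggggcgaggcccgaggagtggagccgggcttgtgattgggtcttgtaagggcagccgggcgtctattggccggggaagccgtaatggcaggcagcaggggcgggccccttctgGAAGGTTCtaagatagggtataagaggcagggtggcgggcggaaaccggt

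Among 35116 promoters in RefSeq, here searched from 250 bases before to 50 after the start on both strands, 6.26% held the NF-kB motif, 6.77% the HSF1 motif and 0.0769% the stress element. These shares are per promoter, while a list gene counted if any of its promoters held the motif. Gene counts and promoter shares are therefore in different units. The NF-kB motif was found for 13 of 19 list genes with a promoter, of which 7 were higher and 1 lower in shACSL5+PA, beside 3 higher and 0 lower of the 6 without it. The HSF1 motif was found for 10 of 17 heat shock genes (6 higher, 0 lower), beside 5 higher and 0 lower of the other 7. The stress element was found for 7 of 23 endoplasmic reticulum genes (4 higher, 0 lower), beside 8 higher and 5 lower of the other 16. The ATF4 motif TGATGNAA was in 10 of 29 integrated stress genes (5 higher, 4 lower) and in 3.62% of all promoters. The NRF2 motif TGACNNNGC was in 5 of 15 antioxidant genes and 13.3% of all promoters, and the SREBP motif TCACNCCAC in 0 of 17 cholesterol genes and 1.13% of all promoters. A match is a stretch of letters in this window and says nothing of binding.

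NRF2, iron and autophagy genes were found on both sides, and ferritin and an autophagy adaptor rose. Of 22 NRF2 targets, 9 were higher and 9 lower. The ferritin light chain FTL read 499, 503 and 524 CPM in shControl, 1283, 1242 and 1280.2 in shACSL5, 927, 924 and 932 in shControl+PA and 1352, 1363 and 1432 in shACSL5+PA. Every shACSL5+PA library was above all others, with a combined change of 1.44 ± 0.027 (SE, adjusted p = 4.28e-21) and 18.3% of 50-base stretches shared with pseudogenes or other genes. SQSTM1, the adaptor p62 that carries cargo to autophagy, read 315, 327 and 329 CPM and 592, 590.1 and 616 (0.89 ± 0.031 SE, adjusted p = 1.48e-16), beside 677, 674 and 651 with palmitate alone. TXNRD1, a thioredoxin reductase, rose by 0.44 ± 0.026 (SE, adjusted p = 1.55e-12) and the peroxiredoxin PRDX1 by 0.44 ± 0.027 (SE, adjusted p = 2.79e-12). GCLM, a subunit of the enzyme that starts glutathione synthesis, fell from 196, 199 and 197 to 111, 116 and 100.3 CPM (-0.85 ± 0.046 SE, adjusted p = 3.05e-13), and SAT1, of polyamine breakdown, changed by -0.80 ± 0.054 (SE, adjusted p = 1.21e-11). The lysosomal genes ATP6V0D1 (0.86) and GLA (0.62) rose and the cathepsin CTSB fell by 0.50.

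Mesenchymal, matrix and epithelial genes were mostly lower. Of 21 tested mesenchymal and matrix genes, 1 was higher and 14 were lower (median -0.59), with medians of -0.50 for the knockdown and -0.29 for palmitate. The number higher was 2 or 3 under 11 alternatives, and it was 3 only without shControl+PA replicate 2 or shACSL5+PA replicate 3. Vimentin (VIM), the intermediate filament of mesenchymal cells, read 3874, 3952 and 4030.5 CPM in shControl and 2547, 2608 and 2704 in shACSL5+PA (-0.59 ± 0.023 SE, adjusted p = 9.28e-16). The collagen chain COL6A2 went from 179, 187 and 192 to 71.9, 70.9 and 77.8 CPM (-1.34 ± 0.044 SE, adjusted p = 5.68e-17). Tenascin (TNC) fell by 1.10 ± 0.044 (SE, adjusted p = 1.63e-15), beside -1.44 with the knockdown alone and a difference of 0.34 ± 0.047 (SE, adjusted p = 1.63e-05) between these groups. The matrix protein TGFBI changed by -1.16 ± 0.054 (SE, adjusted p = 2.47e-14).

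Of 15 epithelial junction and keratin genes, 2 were higher and 12 lower (median -0.40), with 1 higher without shControl replicate 2 or 3 or shACSL5+PA replicate 2. The tight junction gene CLDN4 went from 46.3, 48.1 and 47.5 to 13.8, 14.3 and 13.1 CPM (-1.79 ± 0.076 SE, adjusted p = 4.92e-15). The keratin KRT19 went from 53.6, 60.2 and 58.4 to 19.4, 22.7 and 22.2 CPM (-1.42 ± 0.074 SE, adjusted p = 1.66e-13), and JUP, plakoglobin of junctional plaques, fell by 0.93 ± 0.055 (SE, adjusted p = 1.51e-12). The summed basal-like and luminal markers given above were lower in shACSL5+PA, and their part in these results was not tested. VIM belongs to both the basal-like markers and the mesenchymal list. Among 17 genes of the lung metastasis signature of this cell line, 6 were higher and 7 lower. That list held both ANGPTL4 and PTGS2, which rose, and TNC and SPARC (-0.80 ± 0.051 SE, adjusted p = 4.25e-12), which fell.

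Interferon-stimulated genes were mostly lower. Of 26 tested, 18 fell and 0 rose (median -0.40; 1 rose without shACSL5+PA replicate 2), beside 4 higher and 15 lower with the knockdown and 2 and 8 with palmitate. DDX60, a helicase of antiviral sensing, went from 27.3, 22.9 and 23.3 to 7.1, 6.82 and 6.4 CPM (-1.85 ± 0.11 SE, adjusted p = 3.05e-12), and SAMD9L, which restrains translation and growth, from 38.8, 33.4 and 33.2 to 15.6, 17.6 and 14.3 (-1.15 ± 0.091 SE, adjusted p = 2.29e-10). SAMD9 fell by 0.94 ± 0.058 (SE, adjusted p = 2.90e-12). IRF9, which carries interferon signals to DNA, had -0.99 ± 0.10 (SE, adjusted p = 6.71e-09) from single changes of -0.62 and -0.54, with 48.4% of its exon bases in an overlapping gene. Antigen presentation genes divided, with 5 higher and 5 lower of 15, and 3 lower without shControl replicate 1 or shACSL5+PA replicate 1. TAPBP, which loads peptides on class I molecules, rose from 51.4, 51.8 and 53.5 to 99.1, 104 and 110.3 CPM (1.00 ± 0.048 SE, adjusted p = 4.15e-14), while HLA-C fell by 0.71 ± 0.093 (SE, adjusted p = 6.94e-07).

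Genes of DNA replication and of the ribosome were mostly higher. Of 28 genes of S phase, 22 were higher and 0 lower (median 0.30), with medians of 0.35 and 0.12 for the single changes. The replicative helicase subunit MCM2 went from 128, 133 and 135 to 227, 229 and 254 CPM (0.84 ± 0.042 SE, adjusted p = 1.04e-13), and MCM4 and MCM7 rose by 0.62 and 0.44. The genes of G2 and mitosis divided, 12 higher and 13 lower of 30, with AURKB at 0.48 ± 0.044 (SE, adjusted p = 2.57e-09) and NEK2 at -0.48 ± 0.058 (SE, adjusted p = 2.08e-07). Of 38 cytosolic ribosomal protein genes, 37 were higher and 1 lower (median 0.36; 0 lower under 5 alternatives, among them those without shControl replicate 3 or shACSL5+PA replicate 1), beside medians of 0.33 for the knockdown and 0.23 for palmitate. The departure from the sum passed with a negative value for 32 of these 38 genes and a positive value for 0. For the 28 S phase genes these counts were 13 and 0, beside 7.39% and 7.15% of all genes. Rises in both single changes against the same shControl libraries favour a negative departure, so these counts are a description. RPLP0 rose by 0.57 ± 0.024 (SE, adjusted p = 6.06e-15) and RPL6 by 0.48 ± 0.023 (SE, adjusted p = 2.84e-14), and genes of this family have many near-identical pseudogenes.

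Hypoxia and glycolysis genes were mostly higher with palmitate (20 higher, 1 lower of 29) and mostly lower with the knockdown (7 and 16). The combined state held 12 higher and 6 lower, with a median of 0.072 (0.026 with library sizes alone). GPI, an early enzyme of glycolysis, went from 279, 285 and 287 to 444, 441 and 474 CPM (0.67 ± 0.033 SE, adjusted p = 4.94e-14) and TPI1 rose by 0.33 ± 0.025 (SE, adjusted p = 1.51e-10). VEGFA, the main angiogenic factor, chosen after its values were seen, had -0.60 with the knockdown, 0.49 with palmitate and 0.064 ± 0.045 (SE, adjusted p = 0.229) combined. Of 16 angiogenic factors and receptors, 4 were higher, ADM and ANGPTL4 among them, and 7 lower. The co-receptor NRP1 went from 344, 343 and 343 to 191, 189 and 195 CPM (-0.84 ± 0.03 SE, adjusted p = 2.09e-16) and the semaphorin SEMA3C from 31.3, 33.8 and 33.8 to 16.7, 15.0 and 14.6 (-1.09 ± 0.082 SE, adjusted p = 8.53e-11).

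Targets of YAP and TEAD did not share a direction. Of 24 tested, 10 were higher and 7 lower. ANKRD1 read 30.9, 28.9 and 30.5 CPM in shControl, 195, 207 and 199 in shACSL5, 23.4, 23.9 and 22.8 in shControl+PA and 154, 155 and 141 in shACSL5+PA. It was high in both knockdown groups, with a combined change of 2.32 ± 0.05 (SE, adjusted p = 4.11e-20). Tissue factor (F3) rose by 1.00 ± 0.038 (SE, adjusted p = 7.52e-16), while CCN2, a classic target of the same factors, fell from 499.8, 523 and 510.4 to 317, 313 and 313 CPM (-0.70 ± 0.031 SE, adjusted p = 9.25e-15). Immediate early genes gave 4 higher and 11 lower of 24. Beside the rise of DUSP1, the ERK phosphatases DUSP4 (-0.86 ± 0.027 SE, adjusted p = 3.47e-17) and DUSP5 (-1.18 ± 0.041 SE, adjusted p = 1.44e-16) fell, and DUSP6 (-0.98) had 40.5% of its exon bases in an overlapping gene.

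Markers of cells other than the cancer line rested on few genes. Of 8 lung epithelial markers, SFTPA1, SFTPC, SFTPD and SCGB1A1 were at 0 in both groups, and the sum (44.1 to 46.9 CPM in shControl, 27.5 to 29.1 in shACSL5+PA) was nearly all NKX2-1, which changed by -0.71 ± 0.062 (SE, adjusted p = 1.26e-09). AGER, another of them, had -0.92 ± 0.39 (SE, adjusted p = 0.0435), which failed the threshold under 7 of the 18 alternatives, each of the shACSL5+PA replicates and shControl replicates 1 and 3 left out among them, with an adjusted p of up to 0.138. Endothelial markers (7 in the table, none at 0) summed to 59.1 to 60.8 and 34.2 to 36.0 CPM, mostly ESAM, which fell from 53.7, 54.5 and 56.8 to 32.4, 33.3 and 33.8 CPM (-0.73 ± 0.061 SE, adjusted p = 5.34e-10). CDH5, the defining endothelial cadherin, went from 1.16 to 0.234 CPM on average (-2.26 ± 0.61 SE, adjusted p = 0.00299). Fibroblast markers summed to 20.7 to 22.9 and 18.4 to 19.4 CPM, with DCN, FAP and PDPN at 0 in both groups. The part of these markers in the results was not tested.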

How the data were processed

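Poly(A) RNA was sequenced in 12 libraries, 3 per group. Per the submitters' processing notes, reads were handled with fastp 0.22.0, HISAT2 2.1.0 and featureCounts on GRCh38; the annotation release, strand setting and featureCounts version are not given in the labels used here. The values the authors deposited are whole-number counts for 57730 genes, not normalized; 51928 identifiers were matched to a current symbol. Groups come from the titles. From the counts, edgeR 4.0.16 in R 4.3.3 (filterByExpr, TMM, glmQLFit, glmQLFTest; 14706 genes kept) fitted 1 mean per group to all 12 libraries, with Benjamini-Hochberg adjustment over all genes and a threshold of 0.05. Intervals are 95%; counting intervals (sums under 30) cover counting error only. The script was tested on simulated data. Named genes were the ACSL family, the 10 largest rises and falls at a mean CPM of at least 5 without overlap, up to 4 called members per list by smallest p, the 6 largest of each kind of agreeing, opposed and departing genes, and PDK4, ANGPTL4, CPT1A, PLIN2, CXCL8, PTGS2, DDIT3, ATF3, TRIB3 and SCD. The comparison, members and 33 lists were chosen with earlier results of these data known. Exon overlap and shared 50-base stretches come from GENCODE release 29. Alternatives were DESeq2 1.42.0, library sizes alone, the 6 compared libraries, no or a stricter count filter, a replicate block and leaving out each library. Values of some members of these lists are not reported here.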

Additional observations from a re-analysis of the deposited data

Results flagged for a closer look

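For 21 of the genes named by their single or departing changes, the palmitate response in knockdown cells differed from that in control cells by edgeR's interaction test, adjusted over all genes. On the log2 scale, the difference between these responses (knockdown less control) was negative for RIOX1 (-5.11), CXCL8 (-2.22), TNFAIP3 (-1.53), DUSP1 (-1.38), PTGS2 (-1.29), ADM (-1.25), FILIP1L (-0.70), PPP1R15A (-0.64) and HDAC9 (-0.52). It was positive for DDIT4 (0.34), CREB3L1 (0.82), VGLL3 (0.84), ITGB4 (0.93), CRIP2 (1.09), PDK4 (1.13), SETBP1 (1.35), LCP1 (1.35), AFAP1L2 (1.68), DPYSL3 (1.70), RN7SL1 (2.34) and RN7SL2 (3.27). In these orders, the genes from RIOX1 to ADM and from SETBP1 to RN7SL2 were named for this same difference. The others were named for single changes in the same libraries. The count of 21 and the sizes are therefore descriptions. Such differences were followed over the alternatives for 32 named genes, ACSL5 among them. Of all genes tested, 7.15% passed with a positive difference and 7.39% with a negative one. RIOX1 rests on few reads in shControl, and RN7SL1 read 15.7, 2.91 and 5.26 CPM in the shControl libraries, with replicate 1 standing above the others. Without that library the differences were 1.39 for RN7SL1 and 2.06 for RN7SL2, and without shControl replicate 2 that of RIOX1 was -11.8. The call for FILIP1L was lost with no count filter and without any 1 of the shControl libraries, shACSL5 replicate 1 or 3, shControl+PA replicate 1 or 3, or shACSL5+PA replicate 1. That for CREB3L1 was lost without shControl replicate 2 or 3, shACSL5 replicate 1 or 3, shControl+PA replicate 2, or shACSL5+PA replicate 2, that for VGLL3 without shACSL5+PA replicate 2, and that for RIOX1 under DESeq2.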

How the results depend on the processing

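The counts of higher and of lower genes each stayed within 1.5 times: 3755 to 4393 higher and 4198 to 5063 lower in the combined comparison (18 alternatives), and 787 to 1332 positive and 870 to 1206 negative departures (17, since the 6 libraries alone give none). The balance between them turned: higher genes were 50.3% of the combined calls with DESeq2 in place of 48.3%. ACSL5 ran from -3.34 to -3.14. Of 2735 values for the combined change of genes named by the rule (CHAC1, SLC7A11 and VEGFA not among them), 2703 kept their call, 25 lost and 7 gained it, and 0 reversed. The departures of GDF15 and ACSL5, neither called, changed sign when single libraries were left out (GDF15 -0.17 to 0.13 in place of -0.035; ACSL5 -0.081 to 0.12 in place of 0.029); the cause was not tested. The departure of FILIP1L lost its call under 9 of 17 alternatives and that of CREB3L1 under 6. Replicate numbers did not pair the libraries (correlation of same-numbered libraries -0.042 to 0.080); with the replicate block 8810 genes were called in place of 8787. Where a library was left out, 2 libraries were assumed to vary like the others. Genes at low counts, such as CDH5 and AGER, are limited by depth.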
